A study of Homo sapiens with 4 samples.

Results

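Heat shock proteins and their cochaperones were followed as a group of 10 genes in nascent RNA of HCT116 cells after acute loss of the chromatin regulator KAP1. The members are HSPA1A, HSPA1B, HSPA8, HSPH1, DNAJB1, HSP90AA1, HSPB1, HSPD1, HSPE1 and BAG3, taken from the 19901 protein-coding genes of the count table by matching each Ensembl identifier to its symbol. HSPA1A, HSPA1B, HSPH1, DNAJB1, HSP90AA1, HSPB1 and BAG3 (7 genes) were grouped as inducible, and HSPA8, HSPD1 and HSPE1 (3 genes) as constitutive, from textbook knowledge of which of them heat raises strongly. HCT116 is a line of colon cancer cells, and the samples all come from its derivative KAP1_dTAG_CloneD5, which is 1 clone, so that what is particular to the clone cannot be told apart from what is general to the line. In it, KAP1 (gene TRIM28) carries a degron tag, through which the ligand dTAG brings the protein to the proteasome. The DMSO group (vehicle) and the dTAG group each hold 2 libraries, all from cells kept in serum and exposed for 8 h, and new RNA was marked with 500 μM 4-thiouridine (4sU) during the last 10 min. This assay, TT-Seq, purifies and sequences the RNA made in that short pulse, so the counts are close to synthesis and not to the stock of mRNA.

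Chaperones bind unfolded protein and help it to fold. HSP70 proteins do so in cycles of ATP binding and hydrolysis, which J-domain proteins such as DNAJB1 start and nucleotide exchange factors such as HSPH1 and BAG3 end, and HSP90 takes over clients in a later step. When unfolded protein accumulates, the transcription factor HSF1 is released from chaperones, forms trimers and binds heat shock elements, inverted repeats of the unit GAA, in the promoters of these genes. HSPA8, the cognate HSP70, and the mitochondrial pair HSPD1 and HSPE1 (HSP60 and HSP10) are made at high levels without stress.

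The promoters were searched for the letters GAANNTTC and TTCNNGAA, which hold 2 units and read the same on both strands, and for 3 alternating units, which contain 2 overlapping pairs. RefSeq windows from 250 bases before to 50 after a start (build GRCh38.p14, the same assembly as hg38) were found for all 10 genes, 14 windows in all. A pair of units lay in 7 of the 10 genes (70%), against 4417 of the 27305 genes of the same table (16.2%), and in 8 of the 14 windows against 13.5% of all windows. A run of at least 3 units lay in HSPA8, HSP90AA1 and HSPD1, against 166 genes or 0.608% of the table. By class, 5 of 7 inducible and 2 of 3 constitutive genes held a pair of units, and HSPH1, HSPE1 and BAG3 held none in these windows. The sequences printed here are those of the genes whose nascent RNA the comparison turns on, with DNAJB1 beside them. Capitals mark the units of an element, and the stretch stops where the counted gene or an annotated exon begins. The stretch of DNAJB1 precedes its second RefSeq start, lies inside the counted interval and stops at an annotated exon. Each is written 5′ to 3′ on the strand of its gene.
HSPA1A, chr6:31815293-31815462, plus strand: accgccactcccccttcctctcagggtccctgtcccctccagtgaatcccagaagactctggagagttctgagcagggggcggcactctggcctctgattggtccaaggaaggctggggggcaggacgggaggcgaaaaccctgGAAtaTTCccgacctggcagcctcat
HSPA1B, chr6:31827488-31827733, plus strand: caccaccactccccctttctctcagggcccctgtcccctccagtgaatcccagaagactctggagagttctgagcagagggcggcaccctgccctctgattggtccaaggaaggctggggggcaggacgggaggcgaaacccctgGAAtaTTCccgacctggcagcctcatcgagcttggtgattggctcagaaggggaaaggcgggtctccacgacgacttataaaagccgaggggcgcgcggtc
HSPB1, chr7:76302423-76302542, plus strand: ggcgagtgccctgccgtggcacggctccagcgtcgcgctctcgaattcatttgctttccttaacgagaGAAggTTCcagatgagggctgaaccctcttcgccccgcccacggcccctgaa
BAG3, chr10:119651130-119651368, plus strand: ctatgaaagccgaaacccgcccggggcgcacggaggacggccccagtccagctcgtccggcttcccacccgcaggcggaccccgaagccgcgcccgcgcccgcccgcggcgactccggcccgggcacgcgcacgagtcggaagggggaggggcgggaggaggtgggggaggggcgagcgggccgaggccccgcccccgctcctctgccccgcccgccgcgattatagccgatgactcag
DNAJB1, chr19:14518408-14518647, minus strand: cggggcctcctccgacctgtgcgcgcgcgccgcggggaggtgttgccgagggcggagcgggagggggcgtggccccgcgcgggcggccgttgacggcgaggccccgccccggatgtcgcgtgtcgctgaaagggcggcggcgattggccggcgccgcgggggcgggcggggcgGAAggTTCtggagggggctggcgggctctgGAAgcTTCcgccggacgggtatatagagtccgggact

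HSPA1A and HSPA1B held their element in the same letters, 106 and 105 bases before the start. HSPB1 held it 182 bases before the start, and DNAJB1 had 2 elements, 77 and 47 bases before the start of its second window. The runs of 3 or more units follow with 5 bases on either side, since they mark 3 genes of which none passed the test described further on.
HSPA8 (230 bases before the start), chr11:123062349-123062371, minus strand: agcttGAAagTTCcaGAAcgctg
HSPA8 (55 bases before the start), chr11:123062174-123062196, minus strand: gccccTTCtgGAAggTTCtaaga
HSP90AA1 (88 bases before the start of the second window), chr14:102087115-102087137, minus strand: ggttcTTCcgGAAggTTCgggag
HSPD1 (245 bases before the start of the second window), chr2:197500063-197500090, minus strand: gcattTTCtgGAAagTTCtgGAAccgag
The run in HSPD1 holds 4 units. These matches describe letters in the windows and not bound sites.

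The libraries held between 93105627 and 102314741 counts on genes. Of the genes, 12612 had at least 50 counts in all 4 libraries and were tested, among them 9 of the 10 members. TRIM28 itself had 61.7 and 69.8 CPM (counts per 1000000) with DMSO and 53.5 and 47.9 CPM with dTAG. The ligand removes protein and not RNA, so these values are no check of the treatment. The 5 epithelial markers EPCAM, KRT8, KRT18, KRT19 and CDH1 lay between 133 and 438 CPM in the DMSO libraries, and of 6 markers of blood, endothelial and stromal cells COL1A1 reached 5.43 CPM, PECAM1 reached 0.391 and the rest 0.100 or less. The methods call the libraries of a group biological replicates, and the labels give them a number only. In whole cultures a change in the share of cells that make an RNA cannot be told apart from a change in RNA made per cell.

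HSPA8 had the highest level of the members per length of the counted interval. In the DMSO libraries its level was 165 ± 8.67 CPM per kb (SD, n = 2, as for the levels below). The small heat shock protein HSPB1, which holds unfolded proteins in a refoldable state, followed at 42.0 ± 0.610 CPM per kb. HSPD1, the mitochondrial chaperonin, stood at 14.96 ± 1.42 CPM per kb.

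Below these, HSP90AA1, the stress-inducible cytosolic HSP90, had 10.4 ± 1.82 CPM per kb and HSPA1B, an inducible HSP70, had 10.1 ± 0.667 CPM per kb, and their libraries overlapped. HSPH1, the HSP110 exchange factor, with 6.90 ± 1.08 CPM per kb, and BAG3, an exchange factor that links HSP70 to small heat shock proteins and selective autophagy, with 6.21 ± 0.173 CPM per kb, overlapped too. DNAJB1, the J-domain partner of inducible HSP70, had 5.38 ± 0.187 CPM per kb, and its DMSO libraries lay below those of BAG3. The last places went to HSPE1 at 0.539 ± 0.0280 CPM per kb and HSPA1A, the other inducible HSP70, at 0.279 ± 0.0730 CPM per kb. All these levels divide by the whole interval of the gene. In HSP90AA1 and DNAJB1 a RefSeq start lies well inside that interval. In HSPD1 (minus strand) each RefSeq start does, with windows ending at 197500524 and 197500090 where the interval runs to 197516737. Which start was used was not tested. If most RNA of these genes began at an inner start, their levels per kb would be higher. The places of these genes in the order therefore hold for the whole intervals only.

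The counts of HSPE1, HSPA1A and HSPA1B cannot be read as levels of their genes, nor their fold changes as changes of those genes alone. Of the HSPE1 interval (chr2:197499993-197503457, plus strand), all lies inside HSPD1 on the opposite strand and 87.91% inside the readthrough gene HSPE1-MOB4 on the same strand. Of 489 genes wholly inside a gene of the same strand, 475 had 0 counts in all libraries and none had 50 in all 4, while 239 of 581 genes wholly inside genes of the opposite strand had at least 50 in all 4. Counting therefore used strand and left out reads shared by genes of 1 strand. HSPE1 was thus counted over the first 419 bases of its interval, at a DMSO level of 4.45 CPM per counted kb. This stretch ends at 197500411, and the bases upstream of the RefSeq start of HSPE1 end at 197500378. Most of the counted bases therefore lie before that start. HSPA1A (chr6:31815463-31817946) and HSPA1B (chr6:31827734-31830255) have no introns, and 72.53% and 71.41% of the windows of 50 bases in them occur in the other gene. How reads with several positions were counted is not given in the sources used here. In the other 8 members, from 90.15% to 99.02% of such windows occur once in the genome. DNAJB1 (chr19:14514769-14529770, minus strand) is overlapped over 84.57% by TECR, but on the opposite strand.

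**Figure D1:**
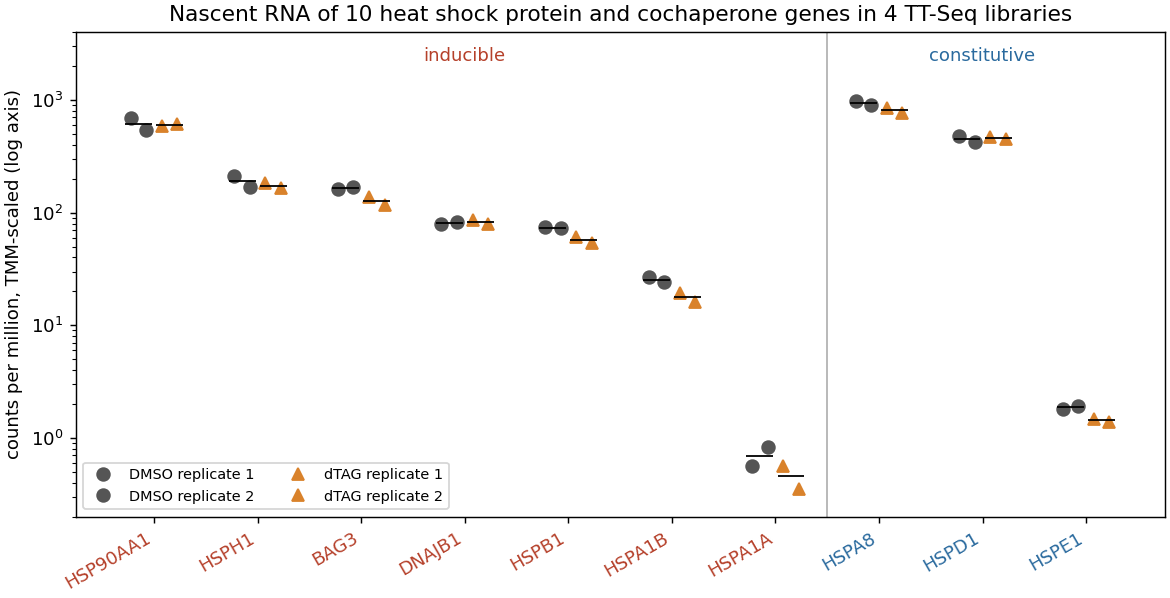
Nascent RNA of the 10 genes, as TMM-scaled CPM on a log axis, with DMSO replicates 1 and 2 as grey circles and dTAG replicates 1 and 2 as orange triangles, each from left to right, and the mean of each pair as a bar. The vertical line parts inducible (red names) from constitutive genes (blue names). HSPA8 lies highest, and HSPA1A and HSPE1 lowest. The dTAG libraries of HSPA1A, HSPA1B, HSPA8, HSPB1, HSPE1 and BAG3 lie below both DMSO libraries, as do those of 30.7% of all tested genes.

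Did acute KAP1 depletion change the transcription of these genes in unstressed cells? HSPA1B, HSPB1 and BAG3 fell, by 30.1%, 21.6% and 22.4%, and no member rose. All 3 belong to the inducible class, which had 6 tested genes, and none of the 3 constitutive genes passed the test. The 3 lower calls among 9 tested members (33.3%) stand beside 461 lower calls among all 12612 genes (3.66%), and the 0 higher calls beside 434 (3.44%). With gene-wide trends on GC content and length removed, BAG3 alone of the 3 kept its call, as shown further on.

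HSPA1B (chr6:31827734-31830255, plus strand) had 26.6 and 24.2 CPM with DMSO and 19.4 and 16.1 CPM with dTAG, from 2632, 2414, 1939 and 1453 counts. Both dTAG libraries lay below both DMSO libraries. Its log2 fold change was -0.52 (SE 0.117, 95% interval -0.76 to -0.27), at a Benjamini-Hochberg adjusted p of 0.0112 in the quasi-likelihood test of edgeR, and it was the 419th lowest of the 12612 tested genes.

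HSPB1 (chr7:76302543-76304295, plus strand) had 74.4 and 72.9 CPM with DMSO and 61.2 and 54.1 CPM with dTAG. The DMSO libraries lay close together and both dTAG libraries below them. The log2 fold change was -0.35 (SE 0.0879, 95% interval -0.53 to -0.17), with an adjusted p of 0.0203 in the same edgeR test.

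BAG3 (chr10:119651369-119677819, plus strand) had 161 and 167 CPM with DMSO and 139 and 116 CPM with dTAG. Here too the groups did not overlap, and dTAG replicate 2 was the lowest library, as it was for HSPA1B and HSPB1. The log2 fold change was -0.37 (SE 0.0926, 95% interval -0.56 to -0.17), with an adjusted p of 0.0213 in the same edgeR test. Without dTAG replicate 2 none of the 3 genes passed it, with log2 fold changes of -0.39 for HSPA1B, -0.27 for HSPB1 and -0.24 for BAG3, and without dTAG replicate 1 HSPA1B alone did (adjusted p = 0.0443).

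HSPA1A, the near copy of HSPA1B, had 56 and 82 counts with DMSO and 56 and 32 with dTAG, and was left out of the test by the count minimum of 50. On the CPM scale these were 0.565 and 0.822 against 0.559 and 0.355, so the dTAG libraries lay below, DMSO replicate 1 and dTAG replicate 1 being nearly equal. With a minimum of 10 counts, its log2 fold change was -0.59, with an adjusted p of 0.296 by edgeR.

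The other inducible genes did not pass the test. HSPH1 (chr13:31134973-31162388, minus strand) had 210.3 and 168 CPM with DMSO and 182 and 164 CPM with dTAG, a log2 fold change of -0.13 (95% interval -0.34 to 0.08). DNAJB1 had 78.8 and 82.7 CPM with DMSO and 86.5 and 79.7 CPM with dTAG, a log2 fold change of 0.04 (95% interval -0.13 to 0.22). HSP90AA1 (chr14:102080737-102139699, minus strand) had 689.6 and 537 CPM with DMSO and 594 and 608 CPM with dTAG, a log2 fold change of -0.03 (95% interval -0.27 to 0.21). In these 3 genes the groups overlapped, and for HSPH1 and HSP90AA1 the DMSO libraries lay further apart than the group means. The upper ends of the intervals for HSPA1B, HSPB1 and BAG3 lie below 0, while those of HSPH1, DNAJB1 and HSP90AA1 include it, and differences between members were not tested in the fit.

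Among the constitutive genes, HSPA8 (chr11:123057488-123063230, minus strand) had 982 and 912 CPM with DMSO and 850.5 and 769 CPM with dTAG. The groups did not overlap, but the log2 fold change of -0.23 (SE 0.108, 95% interval -0.45 to -0.00088) had an adjusted p of 0.187 by edgeR. HSPD1 (chr2:197486580-197516737, minus strand) had 481 and 421 CPM with DMSO and 469 and 449 CPM with dTAG, with overlapping groups and a log2 fold change of 0.03 (95% interval -0.18 to 0.23). HSPE1 had 178 and 193 counts with DMSO and 146 and 126 with dTAG, groups that did not overlap, and its log2 fold change of -0.39 had a wide error (SE 0.229, 95% interval -0.86 to 0.09). The readthrough gene HSPE1-MOB4, which holds most of the HSPE1 interval, had 1181, 1312, 1221 and 1006 counts.

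Taking both classes side by side, the median log2 fold change was -0.24 over the 6 tested inducible genes and -0.23 over the 3 constitutive genes, while that of all tested genes was -0.01. The inducible genes spread from -0.52 to 0.04 and the constitutive ones from -0.39 to 0.03, so each class held a gene near 0 and one well below. Values under 0 were found in 5 of 6 inducible and 2 of 3 constitutive genes, beside 52.3% of all tested genes. Both dTAG libraries lay below both DMSO libraries in 3 of the 6 and 2 of the 3, or 5 of 9 tested members, where the same held for 30.7% of all tested genes. The medians of the classes lay close together, and a difference between the classes was not tested.

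**Figure D2:**
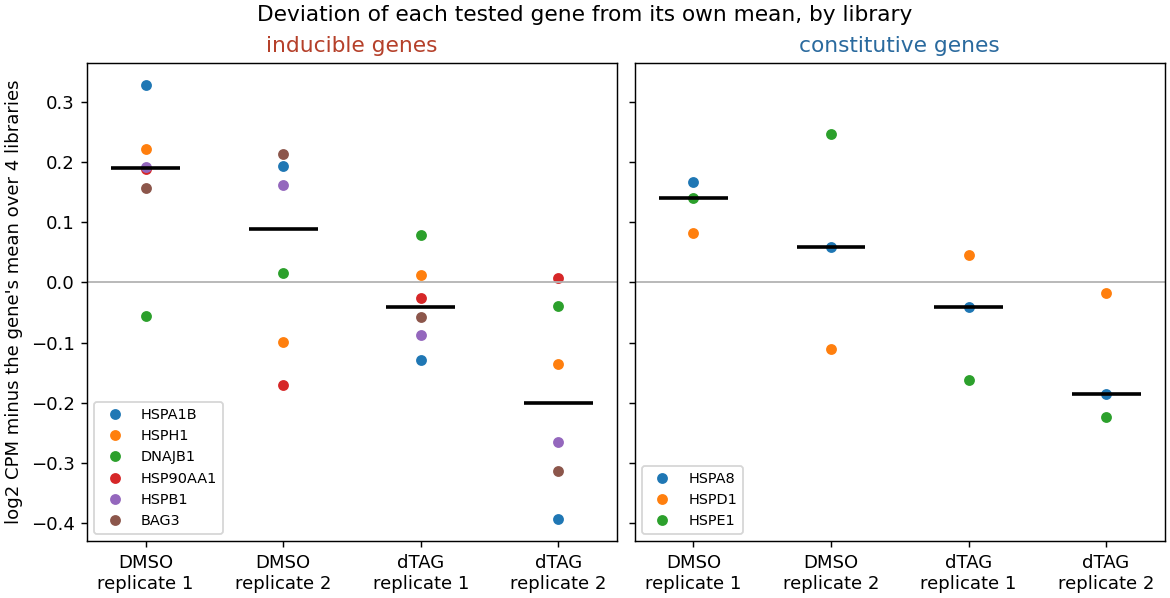
Log2 CPM of each tested gene minus its own mean over the 4 libraries, for 6 inducible genes (left) and 3 constitutive genes (right), with the median of the class as a black bar. The medians of both classes are above 0 in the DMSO libraries and below 0 in the dTAG libraries, -0.20 and -0.19 in dTAG replicate 2; HSPH1, DNAJB1, HSP90AA1 and HSPD1 each have a library on the other side of 0.

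Ratios of counts within a library do not depend on how libraries are scaled, but trends on GC content and length can still enter them. Against HSPA8, HSPA1B made 0.0271 and 0.0265 of its counts with DMSO and 0.0228 and 0.0209 with dTAG, and HSPB1 0.0757 and 0.0799 with DMSO and 0.0720 and 0.0704 with dTAG. Both ratios were lower in both dTAG libraries, with differences of -0.30 and -0.13 on the log2 scale. For BAG3, 0.164 and 0.184 of the HSPA8 counts with DMSO stood against 0.163 and 0.151 with dTAG, a difference of -0.15. With GC content and length trends removed in the fit, the log2 fold change of HSPA8 was -0.11. That of HSPB1 was then -0.01, above HSPA8, while HSPA1B (-0.26) and BAG3 (-0.28) stayed below it.

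DNAJB1 went the other way, from 0.0802 and 0.0908 of the HSPA8 counts with DMSO to 0.102 and 0.104 with dTAG, a difference of 0.27. Within the HSP110 family, HSPH1 fell short of its constitutive relative HSPA4, with 0.729 and 0.660 of its counts under DMSO and 0.621 and 0.568 under dTAG, a difference of -0.22. The ratio of HSP90AA1 to its constitutive relative HSP90AB1 was 0.683 and 0.572 with DMSO and 0.644 and 0.638 with dTAG, and the groups overlapped.

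HSPD1 and HSPE1 share a promoter region and run in opposite directions. The ratio of HSPD1 to HSPE1 was 268 and 218 with DMSO and 322 and 321.5 with dTAG. On HSPE1 few bases were counted, and most of them lie before its RefSeq start. The 2 copies HSPA1A and HSPA1B kept overlapping ratios, between 0.0213 and 0.0340, as did HSPA1A and HSPA8. In 6 of the 9 pairs the groups did not overlap, each with an exact two-sided permutation p of 0.333 (0.5 after Benjamini-Hochberg adjustment over the 9 pairs). With 2 against 2 libraries, this test cannot give a smaller p than 0.333. Groups without overlap were also common among single genes. By CPM, dTAG lay wholly below DMSO in 3877 of 12612 tested genes and wholly above in 3540. The share among ratios of other gene pairs was not computed.

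GC content and gene length moved with the fold changes across all tested genes. Spearman's rho of the log2 fold change was -0.56 with GC content and 0.42 with length over 12612 genes, which are not independent and share the 4 libraries. The same properties moved with differences between replicates, with a rho on GC content of 0.75 for DMSO replicate 2 over DMSO replicate 1 and -0.43 for dTAG replicate 2 over dTAG replicate 1. HSPB1 (63.4% GC, 1.75 kb) and HSPA1B (58.8% GC, 2.52 kb) are short and rich in GC, where all tested genes had medians of 44.9% and 36.2 kb, and BAG3 lies nearer to these with 49.8% and 26.5 kb.

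With the trends removed, BAG3 remained lower (log2 fold change -0.28, edgeR adjusted p = 0.0057), HSPA1B was -0.26 (0.0860) and HSPB1 was -0.01 (0.918). HSPH1, which at 36.8% has the least GC of the 10, then passed as lower (-0.26, edgeR adjusted p = 0.0100) and DNAJB1 as higher (0.19, edgeR adjusted p = 0.0209). So 2 of 9 members were called lower, beside 7.46% of all tested genes, and 1 higher, beside 10.6%, and all 3 were inducible. The medians were -0.14 for the inducible and -0.11 for the constitutive genes. Removing the length trend alone left BAG3 as the only call (-0.34, edgeR adjusted p = 0.0126).

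**Figure D3:**
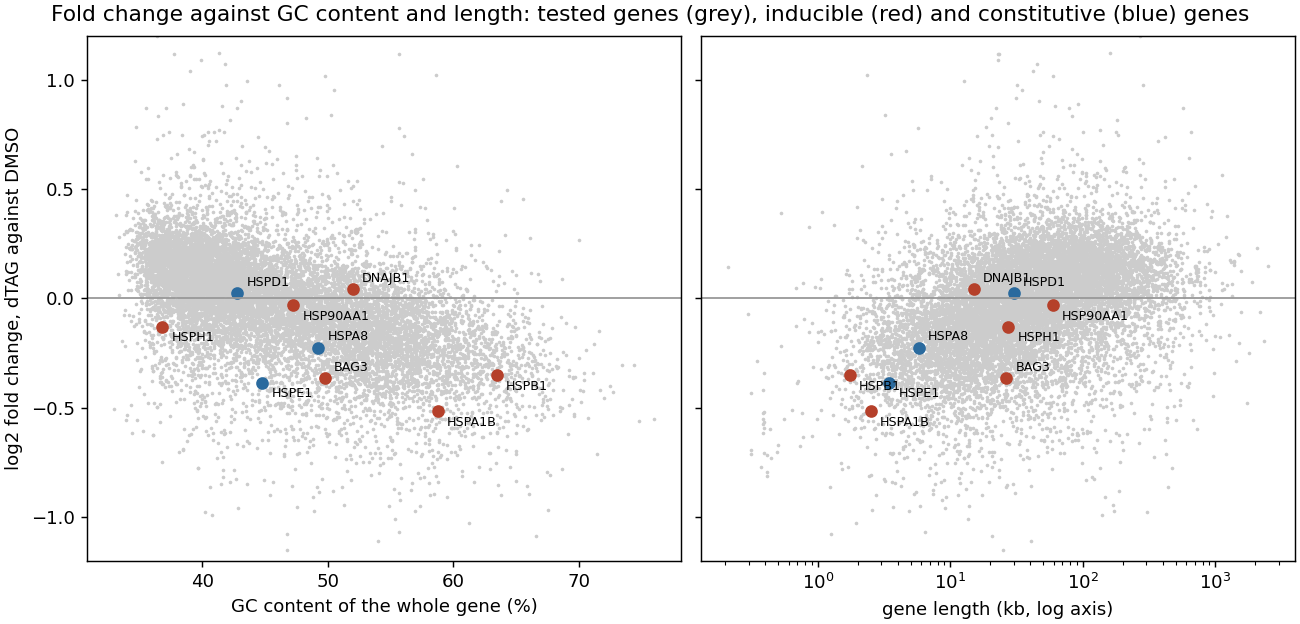
Log2 fold change (dTAG against DMSO) of every tested gene (grey) against GC content of the whole gene in percent (left) and gene length in kb on a log axis (right), with the 6 inducible genes in red and the 3 constitutive genes in blue. Fold changes fall with GC content and rise with length, HSPB1 and HSPA1B lie at the rich and short ends, and BAG3 and HSPH1 lie low for their position; the axis ends at 1.2 and leaves out 7 genes.

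The ERCC spike-in RNAs gave a second scale, though they were 0.0103% to 0.0265% of the gene counts and differed more between the 2 DMSO libraries (14798 and 25165 counts) than between the means of the groups. With the ERCC totals as library sizes, the median of all genes moved to 0.63 and the 9 members lay between 0.09 (HSPA1B) and 0.69 (DNAJB1), so that 7 of them lay below that median, all 9 lay above 0 and none passed the test. With 1 factor from the ERCC counts as a covariate, HSPA1B, HSPA8, HSPH1, HSP90AA1, HSPB1 and BAG3 were called lower. The share of all tested genes called lower with this factor is not given here, so these calls are not read as particular to the members. HSP90AA1 moved most, from -0.03 to -0.30. DNAJB1 was then the 1 member above 0 (0.13, not called).

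**Figure D4:**
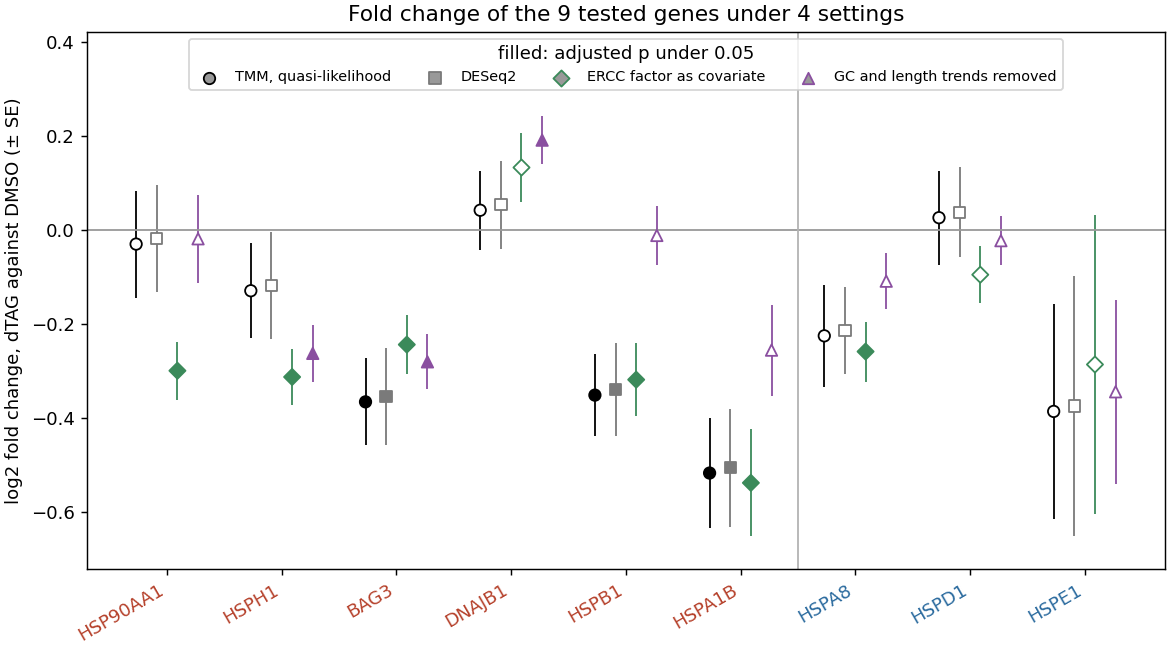
Log2 fold change (dTAG against DMSO) with its SE for the 9 tested genes in edgeR's quasi-likelihood test with TMM scaling (circles), DESeq2 (squares), edgeR with an ERCC factor (diamonds) and edgeR after removal of GC and length trends (triangles), filled where the adjusted p was under 0.05. BAG3 is filled in all 4, HSPA1B and HSPB1 in 3, and DNAJB1 rises above 0 in all 4.

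Other genes of the chaperone system were counted by family. Of 122 such genes tested, 4 were higher and 4 lower (3.28% each way), beside 3.44% and 3.66% of all tested genes, and their median log2 fold change was 0.0020. All 8 calls ended without dTAG replicate 1, without dTAG replicate 2 and with ERCC totals, and with upper-quartile factors those of HSPA13 (edgeR adjusted p = 0.0855) and HERPUD1 (0.0513) did. With the replicate block only FKBP8 and UBB kept their calls, the others having edgeR adjusted p from 0.0610 (PFDN2) to 0.161 (FKBP4). The ERCC factor ended the calls of DNAJC1 (edgeR adjusted p = 0.0741) and UNC45A (0.413). A minimum of 10 counts ended that of UNC45A (0.0535). Removing the length trend alone ended those of FKBP4, UNC45A and UBB. In the HSP70 and HSP110 families 1 of 10 rose and 9 did not pass. The riser was HSPA13, an HSP70 of microsomes (33.4 and 32.9 CPM with DMSO, 40.9 and 42.7 with dTAG, log2 fold change 0.33). HSPA5, the HSP70 of the ER, had 0.21 and did not pass, and HSPA4 had 0.10. Neither cytosolic HSP90AB1 (-0.06) nor HSP90B1 of the ER (-0.01) passed.

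Among 42 other J-domain genes 1 rose, DNAJC1, a membrane protein of the ER (162 and 137 CPM with DMSO, 188 and 194 with dTAG, log2 fold change 0.35), and 41 did not pass. Of 18 HSP90 cochaperone genes 3 fell, the immunophilins FKBP8 (-0.39) and FKBP4 (-0.30) and the myosin chaperone UNC45A (-0.32), and 15 did not pass. None of the 3 passed once GC and length trends were removed, with log2 fold changes of -0.17, -0.14 and -0.16. Of 9 further BAG and exchange factor genes none was called, with 0.12 for SIL1 and 0.20 for GRPEL2, which had the highest CPM of the list without regard to length.

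No gene passed among 8 subunits of the CCT chaperonin, with medians of 0.02 over the list and values of -0.02 for CCT3 and -0.09 for CCT7. Of 6 prefoldin genes, whose product hands unfolded actin and tubulin to CCT, PFDN2 rose, from 143 and 142 CPM to 182 and 193 (log2 fold change 0.40, edgeR adjusted p = 0.0078). Of 16 ER chaperone and unfolded protein response genes HERPUD1, a part of ER-associated degradation, rose (100.2 and 107 CPM with DMSO, 126 and 135 with dTAG, log2 fold change 0.33). Of 13 other mitochondrial chaperone and protease genes none was called, HSPA9 at 0.14 and TRAP1 at 0.05.

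The heat shock factors did not pass either. HSF1, the main factor of the heat shock response, had 97.9 and 120.1 CPM with DMSO and 98.1 and 97.5 CPM with dTAG, overlapping groups with a log2 fold change of -0.16, and HSF2 had 0.03. Of 15 tested genes outside the 10 members that heat is known to raise, 13 had values under 0, beside 52.3% of all tested genes. Their median was -0.16. Of these 15 genes 2 fell and 13 did not pass, where 3.66% of all tested genes fell. The 2 were FKBP4 and the polyubiquitin gene UBB, which had 108 and 106 CPM with DMSO and 84.2 and 79.9 with dTAG (log2 fold change -0.39, edgeR adjusted p = 0.0071) and was called with GC and length trends removed (-0.22, edgeR adjusted p = 0.0101) but not with the length trend alone removed (-0.12, edgeR adjusted p = 0.337). The median of the list was -0.067, with no calls, once the length trend alone was removed, and 0.50 with ERCC totals, where that of all genes was 0.63. Of 8 other small heat shock protein genes HSPB8, the partner of BAG3, was the 1 tested (-0.25, not called). HSPA6, an HSP70 gene that is silent until heat raises it, had 2 and 0 counts with DMSO and 4 and 4 with dTAG, which is too few for a fold change.

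**Figure D5:**
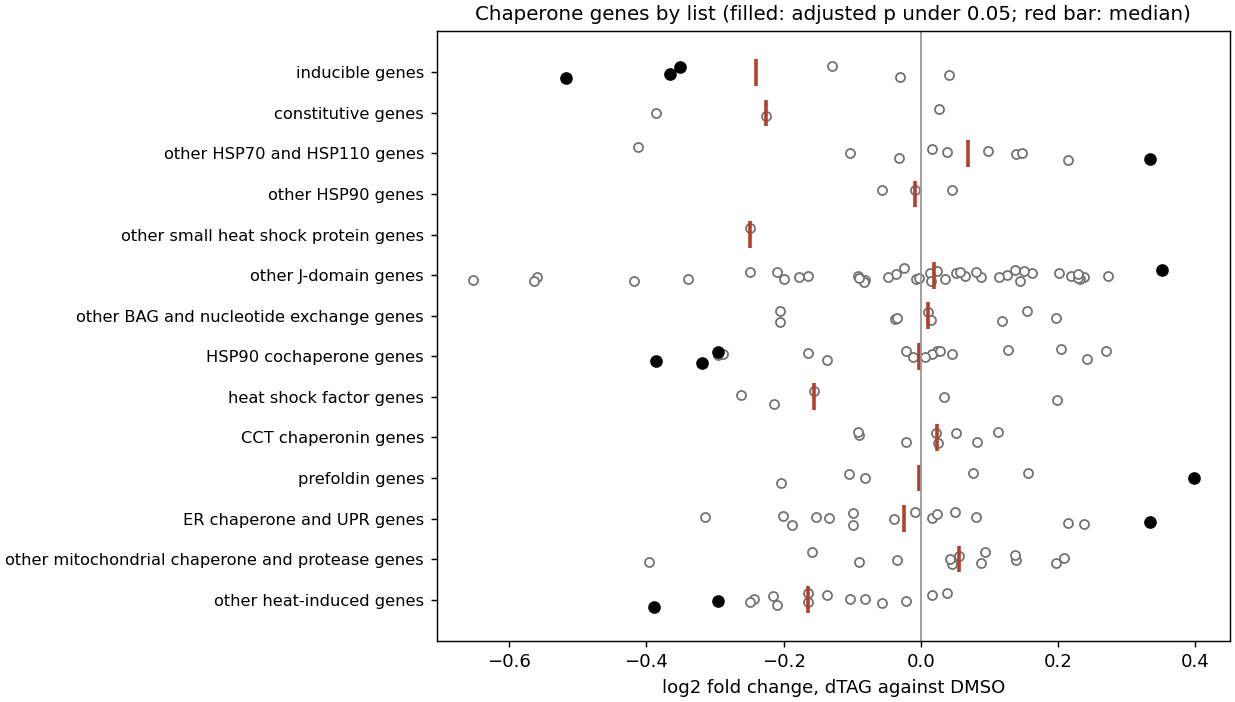
Log2 fold change (dTAG against DMSO) of the tested inducible and constitutive genes and of each other chaperone list, with filled points for an adjusted p under 0.05 and a red bar at the median of the list. The medians of the inducible (-0.24), constitutive (-0.23), heat shock factor (-0.16) and other heat-induced genes (-0.16) and the single small heat shock protein gene tested (-0.25) lie below 0, and those of the J-domain, HSP90, CCT and prefoldin lists lie close to 0; some genes belong to 2 lists.

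Members were last compared by the shape of their 4 values, as the root mean square difference of log2 CPM centred on each gene. The closest pair was HSPB1 and BAG3 at 0.0422, followed by HSPB1 and HSPE1 at 0.0651 and HSPA8 and HSPB1 at 0.0706. HSP90AA1 and HSPD1 came next but one at 0.0720, a pair of 1 inducible and 1 constitutive gene in which DMSO replicate 1 was highest and DMSO replicate 2 lowest. The median profile of the 9 members is that of HSPA8, which was the middle value in each library, 0.17, 0.06, -0.04 and -0.19 in DMSO replicates 1 and 2 and dTAG replicates 1 and 2. Of the genes outside the lists PLP2 (0.00887), SAMD1 (0.0116) and TMEM200A (0.0127) were nearest to that profile, and so to HSPA8. The median of all such genes was 0.168. These are the smallest of many distances over 4 values, so small values were bound to occur. The members other than HSPA8 lay between 0.0706 (HSPB1) and 0.154 (HSPA1B) from the profile.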

How the data were processed

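TT-Seq was run on 2 DMSO and 2 dTAG libraries. Per the labels and the methods, the authors used Trim Galore 0.6.4 for trimming, hg38 for mapping and featureCounts (Subread 1.6.3) for counting over whole protein-coding genes and ERCC RNAs, and the deposited values are raw counts, with no normalization. Strand and multimapping settings are not given in the sources used here.

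Gene intervals were those of the deposited counts. Symbols and exons came from GENCODE 44, GC content of the intervals from hg38, and promoters from RefSeq. Of the genes, 19802 had a symbol. CPM use TMM factors. Genes that reached 50 counts in every library were tested in R 4.3.3 with edgeR 4.0.16 and its two-sided quasi-likelihood F test, p-values being adjusted over 12612 genes after Benjamini and Hochberg, with no replicate block. Calls have an adjusted p under 0.05, and the SE is the log2 fold change over the square root of F. Precision is limited by 2 replicates and, for HSPA1A and HSPE1, by low counts. Scripts were tested on simulated data. Alternatives were DESeq2 1.42.0, upper-quartile and ERCC scaling, an ERCC factor, the likelihood ratio test, other count minimums, the replicate block and leaving out each library. Lowess removal of the length trend, alone or after the GC content trend (span 0.3), was planned, and the crossed block was added after seeing the data.

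The members, classes and lists were chosen with earlier results of these data known. Named genes are the 10 members, TRIM28, HSP90AB1, HSPA4, HSPA5, HSF1, HSF2 and, from each other list, up to 3 called genes by adjusted p or else up to 2 by CPM, with the 3 genes nearest to the median profile. HSPE1-MOB4 and HSPA6 were named after their values were seen. Of the listed genes, 2 were not matched in the table.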

Additional observations from a re-analysis of the deposited data

How the results depend on the processing

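Of the 3 members called lower, HSPA1B kept its call in 11 of 15 alternatives, BAG3 in 11 and HSPB1 in 9. The count of members called lower was 6 with the ERCC factor, 1 with the replicate block (HSPA1B, adjusted p = 0.0224 by edgeR; 0.0753 for HSPB1 and 0.0778 for BAG3), 1 with the length trend removed, 2 with GC content and length trends removed, when 1 member was called higher, and 0 with ERCC totals as library sizes. Leaving out each library in turn gave from 0 to 5 lower members, 0 without dTAG replicate 2, 1 without dTAG replicate 1 and 5 without DMSO replicate 2. These fits assume that a lone library varies like the other group. The shares of all tested genes called lower with the ERCC factor or with each library left out are not given beside these counts. The counts are therefore not read as particular to the members.

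The count of all genes called was 895, and 0 with ERCC totals as library sizes (229 at an unadjusted p under 0.05), 1593 with the likelihood ratio test, 1417 with no count filter, 340 with the replicate block, 2284 with GC content and length trends removed (1343 higher, 941 lower), and from 69 to 5491 with 1 library left out. Upper-quartile factors gave 255 higher and 869 lower calls in place of 434 and 461. Same-numbered libraries deviated in opposite directions (r = -0.24 over 12612 genes). Differences between replicates also followed GC content with opposite signs (rho 0.75 for DMSO and -0.43 for dTAG). This check therefore cannot tell whether the numbers pair the libraries. With the numbers crossed, 3190 genes and 3 members were called.

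The median log2 fold change of the inducible and the constitutive genes was 0.37 and 0.40 with ERCC totals, -0.093 and -0.044 with the length trend removed, and -0.14 and -0.11 with GC content and length trends removed. ERCC totals turned HSPA1B (0.093), HSPA8 (0.40), HSPH1 (0.47), HSP90AA1 (0.57), HSPB1 (0.28), HSPE1 (0.27) and BAG3 (0.27) to values above 0. Genes near 0 changed sign elsewhere: DNAJB1 (-0.032) and HSPD1 (-0.046) with upper-quartile factors, and HSPD1 with the ERCC factor (-0.095) and with GC content and length trends removed (-0.023). With 1 library left out, HSPH1 ranged from -0.28 to 0.040, HSP90AA1 from -0.20 to 0.16, DNAJB1 from -0.015 to 0.099 and HSPD1 from -0.069 to 0.13. Beyond the construction of each alternative, the cause of these changes was not tested.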

Other observations

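With GC content and length trends removed, other chaperone lists held calls that the first test did not make. Among 42 other J-domain genes 6 were then higher and 1 lower, and among 13 other mitochondrial chaperone and protease genes 3 were higher and none lower, beside 10.6% and 7.46% of all tested genes. HSPA5, the main HSP70 of the ER, passed as higher (log2 fold change 0.24, edgeR adjusted p = 0.0020), as HERPUD1 did (0.33). Of the 15 tested genes outside the members that heat raises, none was higher and 3 were lower, which were chosen for naming after their values were seen: UBB (-0.22), the HSP110 gene HSPA4L (-0.29) and DNAJA1 (-0.25), a J-domain partner of HSP70. The median of that list was -0.13. TRIM28 passed as lower before the trends were removed (log2 fold change -0.37, edgeR adjusted p = 0.0189) and not after (-0.10, edgeR adjusted p = 0.173).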
